A study of Mus musculus with 24 samples.

Results

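The cerebellum was compared with the frontal cortex of the same animals in 12 mice, on 24 of the 24 arrays of the series, 12 for each tissue. The mice were naive littermates of the inbred strain SJL/JOrlCrl, 10 weeks old, 6 of them female and 6 male, so the arrays formed 4 groups of 6, the cerebellum and the frontal cortex of either sex. No animal had been treated and none carried an engineered allele, as far as the labels go, and both tissues of an animal bore the same animal label. Total RNA of each tissue was amplified, and each sample went onto its own bead array, the Illumina MouseWG-6 v2.0. Genes were taken into the comparison when 6 or more arrays detected a probe of theirs (detection p under 0.05), which held for 21113 of 45281 probes and for 11439 named genes. The series was designed around the female cerebellum, whereas the tissues are compared here with the sexes pooled.

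The cerebellum and the frontal cortex are built from different neurons. Most cerebellar neurons are granule cells, small glutamatergic cells whose axons contact the Purkinje cells, the GABAergic output neurons of the cerebellar cortex, and Bergmann glia are the radial astrocytes that surround Purkinje cell dendrites. The frontal cortex holds layered excitatory pyramidal neurons and several classes of GABAergic interneuron, and it borders the striatum and other forebrain nuclei. Both tissues share oligodendrocytes, astrocytes, microglia, blood vessels and the general machinery of protein, RNA and energy metabolism.

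Levels are given as normalised log2 intensity, and a difference is the fitted cerebellum level minus the frontal cortex level of the same animals, so that 1 unit is a doubling. A gene is called higher or lower when the paired limma fit gave an adjusted p under 0.05, after Benjamini-Hochberg adjustment over all 21113 probes. A gene was taken as not differing when the 95% interval of its difference lay within 0.25 log2 units on either side of 0, which is a statement about size and not a p-value above the threshold. The p-values measure the spread among these 12 animals. The labels give 1 array for each tissue of an animal, so technical spread was not separated from it.

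The marker lists ran in the direction of the tissue labels. All 8 detected granule cell markers and all 7 detected Purkinje cell markers were higher in the cerebellum. Of these, 5 granule cell markers, with a median difference of 3.99, and 2 Purkinje cell markers, with one of 2.75, were detected in both tissues. The mean level of the Purkinje list was 9.763 to 9.978 on cerebellum arrays against 6.044 to 6.206 on cortex arrays. The mean of the cortical excitatory list was 9.389 to 9.628 on cortex arrays and 6.704 to 7.324 on cerebellum arrays. For the Bergmann glia list, 4 of 5 detected genes were higher, 0 lower and 1 not past the threshold, with a median difference of 2.20 (median 2.44 over the 4 detected in both tissues). In the cortical excitatory list 1 of 13 detected genes was higher, 12 lower and 0 not past the threshold, with a median difference of -1.64 (median -2.53 over the 10 detected in both tissues), the exception being Neurod2 at 0.76. In the interneuron list 2 of 12 detected genes were higher, 10 lower and 0 not past the threshold, with a median difference of -2.50 (median -2.50 over the 6 detected in both tissues), and its raised members Calb2 (3.85) and Reln (2.13) are also known from cerebellar granule layer neurons. Several textbook markers had probes that stayed at background in both tissues, among them Calb1, Pcp4 and Car8 of Purkinje cells and Cbln3 of granule cells. In bulk tissue, fewer cells of a type and less RNA per cell cannot be told apart.

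Some arrays stood apart from the rest of their tissue. Over the 53 genes at least 16-fold lower in the cerebellum, the cerebellum signal was at the median 5.22% of the same animal's cortex signal in male 3, 5.48% in female 4, 2.43% in male 4 and 2.41% in female 5, against 1.44% to 1.88% in the other 8 animals. The same measure turned round, over the 20 genes at least 16-fold higher in the cerebellum, was 1.20% to 2.40% on the cortex arrays. On the cortex side the striatal list, whose genes mark the medium spiny neurons of the neighbouring striatum, had a mean level of 6.357 in female 1 and of 8.505 to 8.738 in males 3 to 6, with a median of 7.875 over the 12 arrays. Its range on the cerebellum arrays was 5.595 to 5.907. The choroid plexus list, the genes of the tissue that lines the ventricles and secretes cerebrospinal fluid, ran from 5.738 to 8.345 on the cerebellum arrays and from 5.063 to 5.635 on the cortex arrays. Its 5 highest cerebellum values, 6.909 or more, belonged to the 4 animals of label batch a (males 1 and 2, females 1 and 2), a tag in the array descriptions, and to female 3. Over the choroid plexus list 6 of 9 detected genes were higher, 1 lower and 2 not past the threshold, with a median difference of 0.697 (median 0.681 over the 4 detected in both tissues, -0.749 for the 1 detected on all 24 arrays). Over the striatal list 0 of 10 detected genes were higher, 9 lower and 1 not past the threshold, with a median difference of -1.48 (median -0.545 over the 5 detected in both tissues). Of the 9 brainstem markers with a probe 0 of 3 detected genes were higher, 2 lower and 1 not past the threshold, with a median difference of -0.355 (1 detected in both tissues). The part of striatal, choroid plexus and cortical transcripts in single results was not tested.

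**Figure D1:**
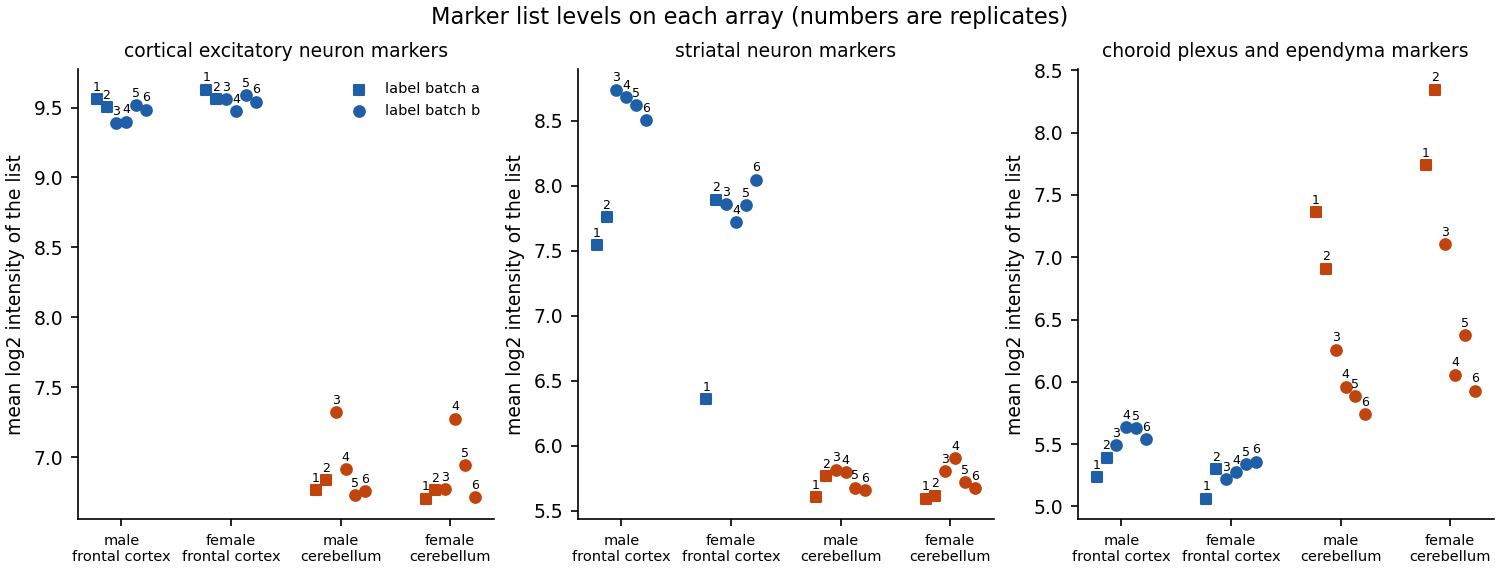
Mean log2 intensity (vertical axes) of the cortical excitatory, striatal and choroid plexus marker lists, 1 panel for each, on the 24 arrays, by sex and tissue. Each point is 1 array with its replicate number, blue for frontal cortex and red for cerebellum, squares for label batch a and circles for label batch b. The cortical excitatory list reaches 7.324 in male cerebellum 3, and the striatal and choroid plexus lists spread widely within 1 tissue.

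Across the 11439 genes, 7913 differed between the tissues (69.2% of those tested). Of these, 4225 were higher in the cerebellum (36.9%) and 3688 were lower (32.2%). The counts of every gene list are to be read against these shares, and a list near them has no direction of its own. At least 2-fold differences were fewer, with 684 genes higher (5.98%) and 910 lower (7.96%), and 4-fold differences were found for 164 and 315 genes. A further 2149 genes (18.8%) did not differ by the interval criterion, and 1451 genes were neither past the threshold nor within the margin. Differences under 2-fold thus made up most of the calls, and 74 genes were past the threshold with an interval inside the margin. The median size of a difference over all 11439 genes, called or not, was 0.319.

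The split between higher and lower genes depended on how the arrays were scaled to each other. With quantile normalization 53.4% of the called genes were higher in the cerebellum and the median gene differed by 0.0283. With each array scaled to the same median, 3142 genes were higher and 4510 lower, so that 41.1% of the calls were higher, and the median gene differed by -0.0635. With cyclic loess the share was 48.8%. The sign of a difference near 0 therefore depends on the scaling. Among the genes, 9853 were detected on 6 or more arrays of each tissue, 616 were kept only through the cerebellum and 621 only through the cortex, and the rest passed only over both tissues together. A gene that passed through 1 tissue alone tends to be higher there through the filter itself, so where under 80% of a list's detected members were detected on 6 or more arrays of each tissue, or where leaving out the others moved the median by over 0.2, the number of these and their median are printed in parentheses, and the count over all members describes the filter as well as the tissue. Where a bound is printed, the gene was detected on 6 or fewer arrays of 1 tissue and on more than 6 of the other. The bound is an at-least fold between the tissue means. For it, each array of the dim tissue was raised to at least the lowest signal detected on that array. It is not a limit for each animal.

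**Figure D2:**
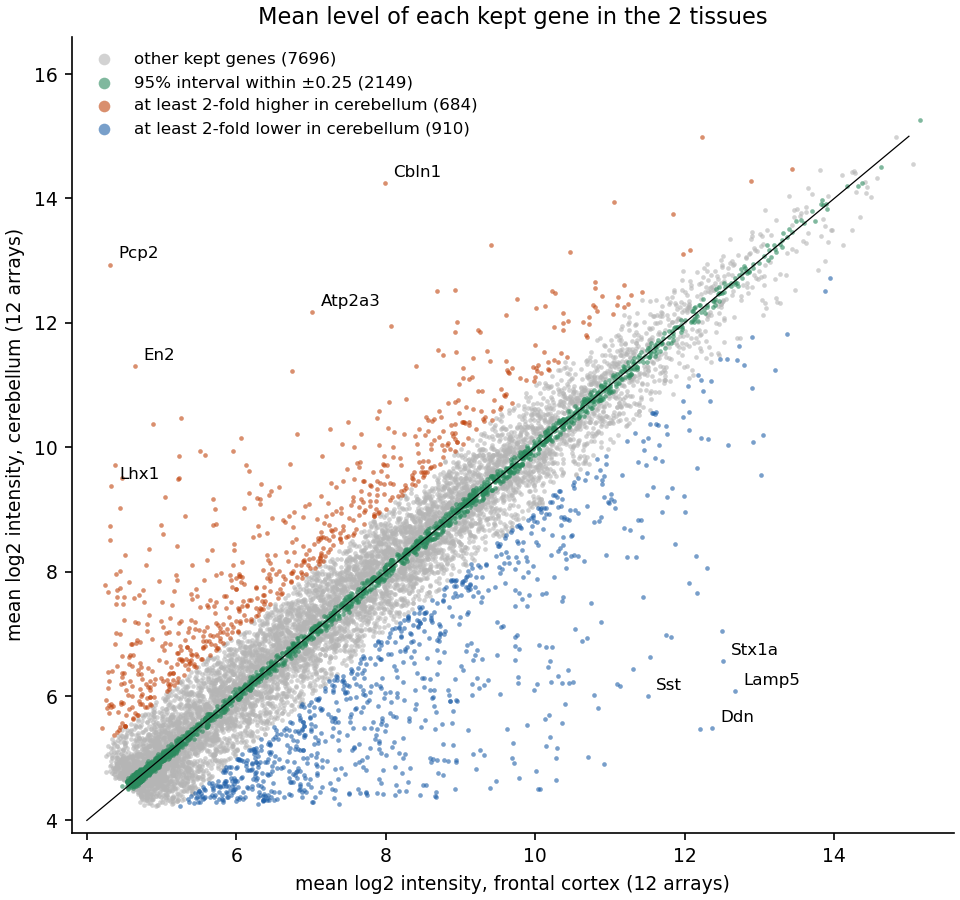
Mean log2 intensity of each of the 11439 genes over the 12 cerebellum arrays (vertical axis) against the 12 frontal cortex arrays (horizontal axis), with colours for genes at least 2-fold higher, at least 2-fold lower and within the margin of 0.25. Most genes lie near the diagonal, Pcp2 and En2 stand far above it and Ddn and Lamp5 far below it.

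The gene with the largest difference was Pcp2, Purkinje cell protein 2, a modulator of G-protein signalling made by Purkinje cells. Its level was 12.72 to 13.09 (median 12.95) on the 12 cerebellum arrays and 4.22 to 4.48 (median 4.27) on the 12 cortex arrays, where it was detected on 0 of 12. The fitted difference was 8.63 ± 0.051 (SE), at least 291-fold (adjusted p = 2.8e-24, limma), and the tissues did not overlap. The sequence around its transcription start, 250 bases before to 50 after in RefSeq's GRCm38.p6 annotation, lies at chr8:3625498-3625797 on the minus strand. It is shown because this promoter marks the strongest contrast in the data, and the capitals mark its single match to CAGATG, a letter sequence of the E-box type, 100 bases before the start.
Pcp2: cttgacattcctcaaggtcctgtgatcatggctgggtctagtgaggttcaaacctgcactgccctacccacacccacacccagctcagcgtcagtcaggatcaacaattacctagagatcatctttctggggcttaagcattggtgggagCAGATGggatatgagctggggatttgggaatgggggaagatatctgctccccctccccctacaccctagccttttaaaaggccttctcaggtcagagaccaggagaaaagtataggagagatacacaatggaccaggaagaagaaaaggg
No other motif searched was found in it, and its ratio of observed to expected CpG pairs was 0.0513, against a median of 0.747 over the promoters of the genes compared.

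En2, a homeobox factor that patterns the midbrain and hindbrain, had levels of 11.09 to 11.64 (median 11.27) in the cerebellum and 4.43 to 4.85 (median 4.64) in the cortex, where 4 of 12 arrays detected it, a difference of 6.67 ± 0.061 (SE) (adjusted p = 1.3e-21, limma), or at least 93.0-fold higher. Cbln1, the secreted synapse organiser that granule cells release onto Purkinje cells, was among the brightest probes in the cerebellum at 14.10 to 14.35 (median 14.26) and was also detected on all 12 cortex arrays at 7.72 to 8.85 (median 7.86), a difference of 6.26 ± 0.088 (SE). Lhx1, a LIM-homeodomain factor of Purkinje cells, had levels of 9.17 to 9.65 (median 9.36) against 4.22 to 4.68 (median 4.28) and was detected on no cortex array, which made it at least 24.8-fold higher. For these 3 genes the lowest cerebellum array was above the highest cortex array by a wide gap.

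Further genes among the 15 most raised differed in function. Atp2a3, the SERCA3 calcium pump of the endoplasmic reticulum, was at 11.94 to 12.30 (median 12.19) against 6.72 to 7.26 (median 7.06), a difference of 5.15 on its brightest probe and of 0.60 on another. Dao, D-amino acid oxidase, which degrades D-serine and is known for its activity in hindbrain astrocytes, was at 9.21 to 9.86 (median 9.50) against 4.28 to 4.63 (median 4.46), at least 26.9-fold higher by the brightest of its probes, while a dimmer probe gave 0.87. Gdf10, a BMP-family ligand of Bergmann glia, was at 11.03 to 11.50 (median 11.17) against 6.43 to 7.10 (median 6.70). Kcng4, a silent modulatory subunit of potassium channels, differed by 4.43, Fgf7, a growth factor detected on 1 of 12 cortex arrays, by 4.58 (at least 19.3-fold), Zfp385c, a zinc finger protein, by 4.62, and Crtam, an adhesion molecule best known from T cells, by 4.43 (at least 15.9-fold). Col18a1, the collagen that yields endostatin, differed by 4.31 on 1 probe and by 0.90 on another.

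Ttr, the thyroxine carrier secreted by choroid plexus, was among the 15 through large values in part of the animals. It was at 7.16 to 13.40 (median 10.12) in the cerebellum and 4.37 to 5.64 (median 4.80) in the cortex, and the SD of its difference over animals was 2.44, the largest of all called genes. Its cerebellum level was above 11.9 in the 4 animals of label batch a and in female 3, and below 10.6 in the others, the same arrays that were high for the choroid plexus list. Il20rb and Ddx49 were also in the list by their brightest probe, at 5.34 (at least 31.2-fold) and 5.21, but a second probe gave 0.41 for the former and -0.37 for the latter. Ddx49 overlaps Homer3, a Purkinje cell scaffold without a named probe here, in the GRCm38.p6 annotation, and which transcript its brightest probe measured was not tested.

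**Figure D3:**
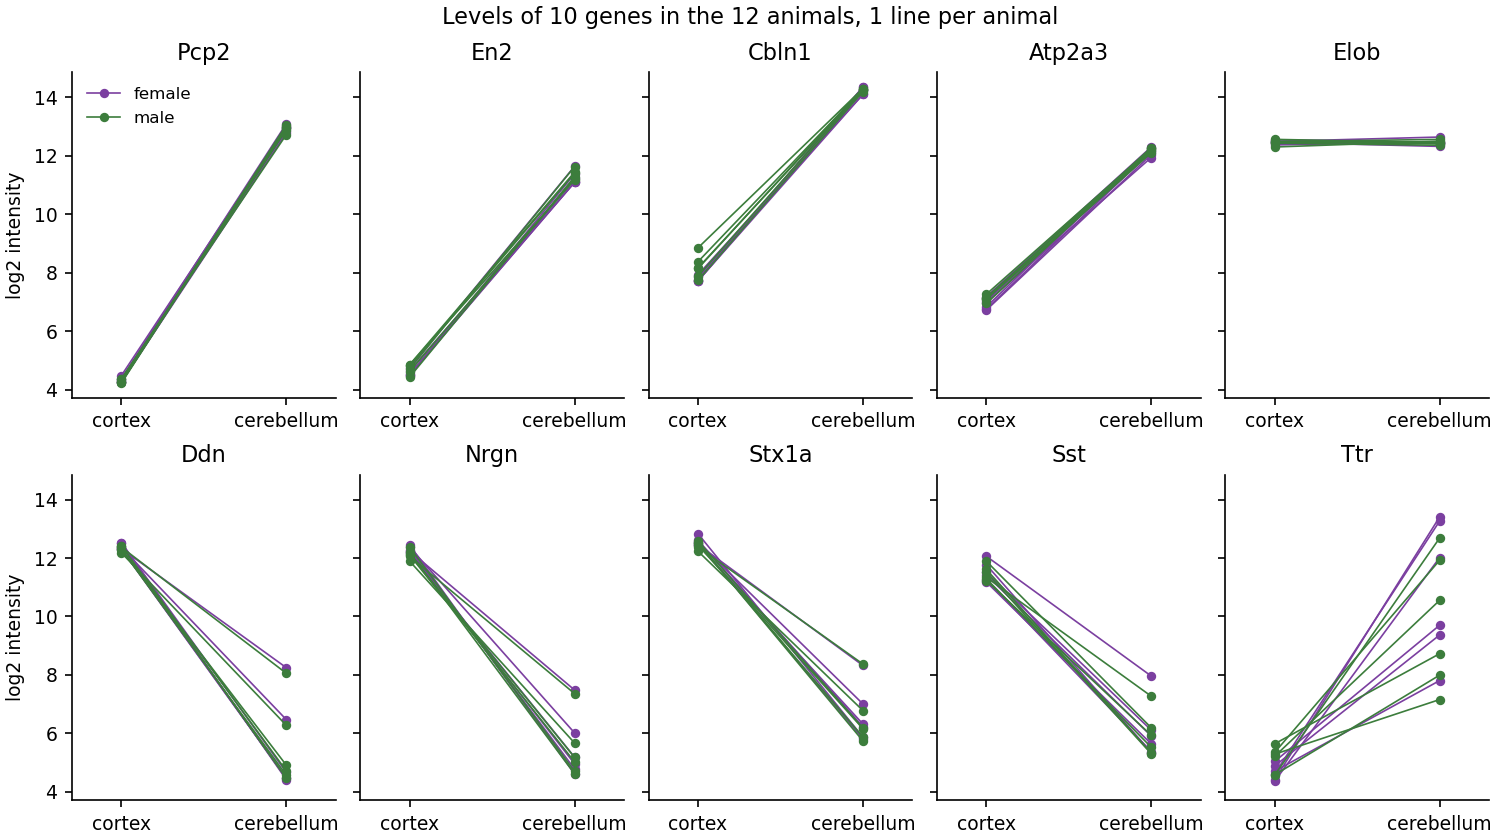
Log2 intensity of 10 genes on the frontal cortex and cerebellum arrays of each of the 12 animals, 1 panel per gene, with a line joining the arrays of an animal, purple for females and green for males. Pcp2, En2, Cbln1 and Atp2a3 are higher in the cerebellum of every animal, Ddn reaches 8.057 and 8.250 in 2 cerebellum arrays, Ttr spreads over about 6 units in the cerebellum, and Elob stays level.

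At the other end, Ddn, which encodes dendrin, a protein of dendrites and postsynaptic sites, was at 12.18 to 12.53 (median 12.35) in the cortex and 4.42 to 8.25 (median 4.70) in the cerebellum, where 5 of 12 arrays detected it. The difference was -6.88 ± 0.34 (SE) over all animals (adjusted p = 5.6e-12, limma). It was -7.80 without the 4 animals whose cerebellum signal was the highest share of their cortex signal. The bound for Ddn, from the tissue means, was at least 110-fold lower, while the difference in single animals ran from -8.11 to -4.07. Its cerebellum level was 8.057 in male 3 and 8.250 in female 4, 6.278 in male 4 and 6.474 in female 5, and no more than 4.916 in the other 8. Nrgn, neurogranin, the calmodulin-binding protein of forebrain pyramidal neurons, was at 11.89 to 12.44 (median 12.20) against 4.62 to 7.48 (median 5.11), a difference of -6.74, or -7.35 without those animals. Lamp5, a lysosome-family membrane protein of cortical neurons, was at 12.44 to 13.05 (median 12.64) against 5.09 to 8.08 (median 5.70), with differences of -6.59 and -7.23. The tissues did not overlap for any of the 3. These genes are among those by which the 4 animals were singled out, so the larger differences without them are not independent of that choice.

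Stx1a, the plasma-membrane syntaxin of transmitter release, was at 12.23 to 12.83 (median 12.51) in the cortex and 5.74 to 8.37 (median 6.21) in the cerebellum. Its difference was -5.95 ± 0.23 (SE), or -6.53 without the 4 animals with the highest share of cortex signal in the cerebellum. Enc1, an actin-binding protein of the kelch family, differed by -5.45, Ctxn1, the small membrane protein cortexin, by -5.68, Crym, a thyroid hormone-binding crystallin, by -5.53, Crhbp, the binding protein of corticotropin-releasing hormone, by -5.13, and Rasl10a, a Ras-like GTPase, by -5.10. Egr3, an activity-regulated zinc finger factor, differed by -6.02 on its brightest probe and by -0.24 on another. Sst, the peptide somatostatin of a class of interneurons, was at 11.18 to 12.05 (median 11.46) against 5.30 to 7.96 (median 5.78), a difference of -5.51 ± 0.18 (SE), or -5.86 without those 4 animals. Without them Egr3 had -6.59, Ctxn1 -6.10 and Enc1 -5.86. The striatal and extended-amygdala peptides and signalling proteins Pdyn (-5.64), Tac1 (-5.56) and Rgs9 (-5.21) were in the same list, and for Tac1 and Rgs9 the lowest cortex array was female 1 at 8.131 and 7.648, the array with the lowest striatal list. Krt12, a keratin named by the probe annotation, differed by -5.28. Several of these genes were detected on few cerebellum arrays, Tac1 on 1 of 12, Crym and Rasl10a on 2, Egr3 and Pdyn on 4 and Ctxn1 on 6, and their bounds were at least 38.7-fold, 36.1-fold, 30.1-fold, 55.8-fold, 41.8-fold and 47.7-fold.

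The promoters of Nrgn, chr9:37552696-37552995, and Sst, chr16:23890795-23891094, both on the minus strand of GRCm38.p6, are shown because these genes mark the pyramidal and the interneuron side of the cortical excess. In the Nrgn promoter the capitals mark CATCTG, the reverse complement of CAGATG, at position -208 from the start, and CCGCCC, the reverse complement of GGGCGG, at position -43. In the Sst promoter they mark TGACGTCA, the palindromic cyclic AMP response element, at position -48.
Nrgn: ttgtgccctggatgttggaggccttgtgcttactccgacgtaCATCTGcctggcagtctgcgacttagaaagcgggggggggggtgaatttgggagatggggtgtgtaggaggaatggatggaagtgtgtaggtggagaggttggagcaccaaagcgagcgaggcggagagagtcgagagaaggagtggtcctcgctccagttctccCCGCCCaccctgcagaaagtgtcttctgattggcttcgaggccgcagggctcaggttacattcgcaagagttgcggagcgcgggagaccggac
Sst: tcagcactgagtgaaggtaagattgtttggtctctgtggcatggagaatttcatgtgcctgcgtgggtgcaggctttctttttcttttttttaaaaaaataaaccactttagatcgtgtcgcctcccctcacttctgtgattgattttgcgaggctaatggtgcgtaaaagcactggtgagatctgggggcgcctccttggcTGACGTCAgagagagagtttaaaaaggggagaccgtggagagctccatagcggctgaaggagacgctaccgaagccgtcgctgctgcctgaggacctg
Over all 27025 promoters of that length, CAGATG or its reverse complement was found in 17.2%, GGGCGG in 35.9% and TGACGTCA in 1.88%, so the first pair are common letter matches and the third is not. A match describes the letters only.

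Transcription factors that pattern the brain were among the families with the most one-sided differences. All 3 detected Zic genes, zinc finger factors of granule cell precursors, were higher, with Zic1 at 3.99, Zic2 at 4.28 and Zic4 at 3.20. All 4 nuclear factor I genes, which time glial and granule neuron differentiation, were higher too, by 0.71 for Nfib, 0.75 for Nfix, 1.13 for Nfic and 1.37 for Nfia. Over the Engrailed, Pax, Otx, Irx and Meis genes, 9 of 15 detected members were higher, 5 lower and 1 not past the threshold, and the median was 0.634 (median -0.293 over the 7 detected in both tissues, median -0.180 over the 6 detected on all 24 arrays). This group split by gene rather than moving as one: En1 differed by 3.31 (at least 7.79-fold), Irx3 by 3.76 and Meis1 by 3.08, while Meis2, its paralog, differed by -4.77 and Otx1, a forebrain homeobox gene, by -2.97.

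Other transcription factor families were divided as well, and since the largest rise and the largest fall of a list were named by rule, opposite signs among the named genes follow from that choice. Among LIM-homeodomain factors, 4 of 9 detected genes were higher, 3 lower and 2 not past the threshold, with a median difference of -0.0150 (0 detected in both tissues). Lhx5 differed by 3.55 (at least 8.19-fold) and Isl1, a factor of striatal and cholinergic neurons, by -2.92. Sox factors were more often lower than higher: 1 of 13 detected members was higher, 6 lower and 6 not past the threshold, and the median was -0.0595, led by Sox11 at -2.27 and Sox4 at -1.62, both SoxC factors of immature neurons. Only Sox9 of this family, a factor of astrocytes and Bergmann glia, was higher, at 0.55, and Sox7 had a difference of 0.0021 with an interval of -0.13 to 0.13 (-0.04 under median scaling). For the Forkhead family, 8 of 21 detected genes were higher, 6 lower and 7 not past the threshold, with a median difference of 0.0685 (median 0.0698 over the 14 detected in both tissues, under median scaling median -0.0369 with 6 higher and 6 lower, median -0.0342 in label batch a alone). It held Foxp1 of cortical and striatal neurons at -1.94 and Foxn3 at 1.89. Among the Kruppel-like factors, 3 of 10 detected genes were higher, 3 lower and 4 not past the threshold, with a median difference of -0.0350 (median -0.125 over the 7 detected in both tissues, under median scaling 1 higher and 5 lower, under cyclic loess 3 higher and 4 lower). Klf16 was the lowest at -1.78, and Klf4 had a difference of 0.0044 (-0.0010 under median scaling).

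Nuclear receptors, the ligand-regulated transcription factors, were divided as well. Among the 26 members detected of 38 with a probe, 9 were higher, 10 lower and 7 not past the threshold, with a median of 0.0662 (median 0.349 over the 18 detected in both tissues). Rora, the receptor lost in the staggerer mouse, whose Purkinje cells fail to mature, was higher by 2.27, at 10.03 to 10.64 (median 10.30) in the cerebellum and 7.57 to 8.33 (median 8.07) in the cortex. Esrrb and Esrrg, estrogen-related orphan receptors, were higher by 2.21 and 1.61, and Rxrg, a retinoid X receptor of the striatum, was lower, with a difference of -2.33. The paralog of Rora, Rorb, a factor of cortical layer 4, differed by -1.07. Within retinoic acid signalling, 5 of 14 detected genes were higher, 3 lower and 6 not past the threshold, with a median difference of 0.0615 (median 0.0703 over the 9 detected in both tissues). The gene of the synthetic enzyme Aldh1a1 was higher by 1.87.

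In the canonical Wnt pathway, against 36.9% higher and 32.2% lower of all genes, 4 of 26 detected genes were higher, 12 lower and 10 not past the threshold, with a median difference of -0.129. The lowest were secreted modulators, Dkk3 at -3.84, Sfrp1 at -2.66 and Rspo2 at -2.05 (at least 3.10-fold), whereas Axin1, a scaffold of the complex that degrades beta-catenin, differed by 0.86, and the kinase gene Csnk1d had a difference of -0.0030. Of the ligands, Wnt7b differed by -3.03 and Wnt7a, a granule cell ligand, by 2.14, while the receptor genes Fzd7 and Fzd2 differed by 3.06 and -1.38. Over that list 5 of 17 detected genes were higher, 7 lower and 5 not past the threshold, with a median difference of -0.159 (median -0.142 over the 12 detected in both tissues), with shares not far from those of all genes. Wnt7a was at 9.58 to 9.89 (median 9.77) in the cerebellum and 7.38 to 7.95 (median 7.63) in the cortex, and Wnt7b at 6.48 to 7.19 (median 6.68) and 9.48 to 10.12 (median 9.76), without overlap in either case.

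Hedgehog genes were mostly higher in the cerebellum, against 36.9% higher and 32.2% lower of all genes. Purkinje cells supply sonic hedgehog during development, whereas these mice were 10 weeks old. Among the 14 members detected of 20 with a probe, 8 were higher, 3 lower and 3 not past the threshold, with a median of 0.369 (median 0.555 over the 11 detected in both tissues). The receptor Ptch1, itself a target of the pathway, was at 8.57 to 8.96 (median 8.69) against 6.52 to 7.20 (median 6.72), a difference of 1.95 ± 0.074 (SE), and the transducer Smo differed by 0.83, the ligand Shh by 0.61 and the factor Gli2 by 0.56. Dhh, desert hedgehog, was flat at 0.0036, and Evc2, a ciliary protein, was the lowest at -1.79.

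In the Notch pathway, 10 of 25 detected genes were higher, 9 lower and 6 not past the threshold, with a median difference of 0.0758 (under median scaling 8 higher and 10 lower, under cyclic loess 9 higher and 9 lower). Dner, a Notch-like membrane protein of Purkinje cell dendrites, was the highest at 1.45, and Hes5, a target gene in radial glia and astrocytes, the lowest at -2.15. BMP and TGF-beta genes were evenly divided, with 13 of 36 detected genes higher, 15 lower and 8 not past the threshold, and with a median difference of 0.00374 (under median scaling median -0.0759, under cyclic loess median -0.0390). They lay between Gdf10 at the top and Inhba, the activin subunit gene, at -2.24. The protease gene Bmp1 differed by 2.11 and the ligand Bmp3 by -2.09 (at least 3.21-fold). For fibroblast growth factors and their receptors, 7 of 16 detected genes were higher, 6 lower and 3 not past the threshold, with a median difference of 0.0657 (median -0.0765 over the 12 detected in both tissues), and Fgf9 (1.25) and Fgf1 (1.48) followed Fgf7, while Fgf13, an intracellular channel-binding member, was lowest at -2.04. In the insulin and IGF axis the binding proteins went separate ways, Igfbp5 at 0.93 and Igfbp4 at -3.43, the ligand Igf1 had a difference of -0.0045 with an interval of -0.16 to 0.15, and 6 of 17 detected genes were higher, 7 lower and 4 not past the threshold, with a median difference of -0.00449.

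Inside the cell, the enzymes of cyclic nucleotide signalling were mostly lower and those of phosphoinositide and calcium signalling mostly higher. For cyclases and phosphodiesterases, 7 of 34 detected genes were higher, 21 lower and 6 not past the threshold, with a median difference of -0.530. Pde1a and Pde1b, calmodulin-dependent phosphodiesterases, differed by -4.16 and -2.57, whereas their paralog Pde1c differed by 1.73, and Adcy1, a calcium-stimulated adenylyl cyclase, by 0.92. The guanylyl cyclase partner kinases were also split, Prkg1, which Purkinje cells use in synaptic depression, at 1.15 and Prkg2 at -2.26.

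For the phosphoinositide and calcium list, 27 of 49 detected genes were higher, 15 lower and 7 not past the threshold, with a median difference of 0.345. After Atp2a3, the highest were Inpp5a (2.92), an inositol phosphate phosphatase of Purkinje cells, Prkcd (2.80), a protein kinase C, and Inpp4b (2.07). Inpp5a was at 11.60 to 12.00 (median 11.86) in the cerebellum and 8.79 to 9.17 (median 8.89) in the cortex. The classical protein kinase C gene Prkca was lower, at -1.49, and Synj2, a phosphatase of vesicle recycling, was lowest at -1.56.

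The MAP kinase cascade showed no common direction, with 22 of 54 detected genes higher, 21 lower and 11 not past the threshold, and with a median difference of 0.0468 (under median scaling median -0.0863 with 20 higher and 24 lower, under cyclic loess 20 higher and 21 lower). Its dual-specificity phosphatases, which switch MAP kinases off, accounted for both extremes, from Dusp5 at 3.44 and Dusp10 at 2.22 to Dusp14 at -2.10 and Dusp6 at -1.47. Mapk12, the gamma isoform of p38, was higher by 2.48, and the kinase gene Map3k7 was flat at 0.02. mTOR and AMPK genes were likewise divided: 12 of 33 detected members were higher, 12 lower and 9 not past the threshold, and the median was -0.00759 (under median scaling 8 higher and 17 lower, under cyclic loess 11 higher and 13 lower). The inhibitors Ddit4l and Deptor differed by -3.66 and -1.35, and the regulatory subunit gene Pik3r3 by 1.53, while Tsc2, the brake of the pathway, had an interval of -0.12 to 0.11 (-0.20 under median scaling, past the threshold).

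The lists of receptors for neuropeptides, serotonin, dopamine, acetylcholine and purines held genes detected in the cortex but not in the cerebellum. Such genes tend to be lower in the cerebellum through the filter itself, so the list counts and medians describe the filter as well as the tissue. Over the members detected in both tissues the medians of these lists lay between -0.172 and 0.00843. Of the opioid, cannabinoid and neuropeptide receptors, 4 of 22 detected genes were higher, 15 lower and 3 not past the threshold, with a median difference of -0.673 (median -0.0370 over the 11 detected in both tissues, median 0.252 over the 7 detected on all 24 arrays). Cckbr, the cholecystokinin B receptor, was at 10.14 to 10.78 (median 10.36) in the cortex against 4.78 to 6.55 (median 5.45) in the cerebellum, a difference of -4.79 ± 0.14 (SE), followed by Sstr2 at -4.26 and Npy1r at -3.24. Cnr1, the cannabinoid receptor that granule cell axons carry, and Crhr1, the corticotropin-releasing hormone receptor, were the exceptions among the textbook members, at 0.76 and 0.98. For the enzymes that make and break endocannabinoids, 2 of 11 detected genes were higher, 5 lower and 4 not past the threshold, with a median difference of -0.0546. The lipase gene Mgll was the lowest at -1.12.

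For serotonin receptors, 1 of 8 detected genes was higher, 6 lower and 1 not past the threshold, with a median difference of -0.560 (median 0.00843 over the 2 detected in both tissues, median 0.00843 over the 2 detected on all 24 arrays). Htr1a was the lowest at -3.08 (at least 6.90-fold), and Htr1b, found on cerebellar and striatal axons, was higher by 0.53. In the dopamine and adrenergic list, 1 of 4 detected genes was higher, 3 lower and 0 not past the threshold, with a median difference of -1.24 (median -0.172 over the 2 detected in both tissues), and Drd1 and Drd2 differed by -3.57 and -1.52 (at least 2.30-fold). The cortex level of Drd1 was 6.726 in female 1, the array with the lowest striatal list, and 8.736 to 8.905 in males 3 to 6, the arrays with the highest, and the part of striatal tissue in this difference was not tested. For acetylcholine receptors, 2 of 8 detected genes were higher, 5 lower and 1 not past the threshold, with a median difference of -0.484 (median -0.144 over the 2 detected in both tissues). They ran from Chrm3 at -3.34 to the nicotinic subunit gene Chrnb2 at 1.14. Among purine receptors, 3 of 7 detected genes were higher, 4 lower and 0 not past the threshold, with a median difference of -0.386 (median -0.138 over the 6 detected in both tissues, median 0.152 over the 5 detected on all 24 arrays). P2ry1 differed by 0.93 and P2ry13, a microglial receptor, by -1.73. Glra2 differed by -2.94, while its partner gene Glrb and the GABA-B subunit gene Gabbr1 had intervals of -0.12 to 0.20 (-0.09 under median scaling) and -0.01 to 0.24 (-0.07 under median scaling), and in that list 0 of 4 detected genes were higher, 2 lower and 2 not past the threshold, with a median difference of -0.162. Among TRP channel genes, 3 of 12 detected genes were higher, 6 lower and 3 not past the threshold, with a median difference of -0.176 (median -0.329 over the 8 detected in both tissues). Trpm7 was the highest at 0.78 and Trpm4 the lowest at -0.78.

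At the synapse, the postsynaptic scaffolds had one of the lowest medians of any list. There 4 of 28 detected genes were higher, 18 lower and 6 not past the threshold, with a median difference of -0.887. Dlgap2 was at 7.97 to 8.55 (median 8.28) in the cortex and 4.26 to 4.76 (median 4.38) in the cerebellum, a difference of -3.80 ± 0.076 (SE), and Homer1 and Homer2 differed by -1.97 and -1.95. Nos1, the neuronal nitric oxide synthase that granule cells and molecular layer interneurons express, was the highest at 0.88, Gphn, the gephyrin gene of inhibitory synapses, was at 0.46, and Pick1 had an interval of -0.12 to 0.15 (-0.17 under median scaling). For synaptic adhesion genes, 11 of 44 detected genes were higher, 28 lower and 5 not past the threshold, with a median difference of -0.472, and the cerebellin family itself was divided, with Cbln1 at the top and Cbln4 at -3.93. Nptx2, an activity-regulated pentraxin, was lowest at -4.47, the contactin gene Cntn6 was higher at 1.54, and Ptprd differed by -2.71 (at least 4.89-fold).

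The vesicle and active zone list held more lower than higher genes, against 36.9% higher and 32.2% lower of all genes. In it 20 of 74 detected genes were higher, 35 lower and 19 not past the threshold, with a median difference of -0.127 (under median scaling median -0.221 with 15 higher and 41 lower, under cyclic loess 19 higher and 36 lower). Unc13c, the Munc13 of cerebellar synapses, differed by 2.25 and Unc13b by -1.35, Doc2b by 2.11 and Doc2a by -2.04 (at least 3.11-fold), and Cplx1, a complexin, had an interval of -0.06 to 0.15 (-0.21 under median scaling, past the threshold). Of calcium sensors, Cpne6 and Hpcal4 differed by -4.86 and -3.90, Cabp2 and Hpcal1 by 4.19 (at least 13.5-fold) and 2.13. Calm3, 1 of the calmodulin genes, had an interval of -0.13 to 0.20 (-0.23 under median scaling, past the threshold). In that list, 8 of 21 detected genes were higher, 10 lower and 3 not past the threshold, with a median difference of -0.184 (median 0.0329 in label batch b alone, median 0.0270 over the means of each gene's probes).

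Cytoskeletal regulators were more often lower. For actin regulators of the Arp2/3, WAVE and cofilin pathways, 7 of 36 detected genes were higher, 23 lower and 6 not past the threshold, with a median difference of -0.302, although the differences were small, from -1.35 for Abi3, a microglial adaptor, to 0.62 for the cofilin kinase gene Limk2, with Wasf1 at -1.0.

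For tubulins and microtubule-associated proteins, 9 of 34 detected genes were higher, 17 lower and 8 not past the threshold, with a median difference of -0.212. They ran from Dclk3, a kinase of striatal and cortical neurons, at -3.69 and Dcx, doublecortin of immature neurons, at -2.09, to the tubulin gene Tuba8 at 1.93. Among kinesins, 8 of 26 detected genes were higher, 12 lower and 6 not past the threshold, with a median difference of -0.113 (median -0.0457 over the 20 detected in both tissues). The conventional heavy chain genes Kif5a, Kif5b and Kif5c had differences of -0.71, 0.08 and 0.49. For dynein and dynactin subunits, 5 of 18 detected genes were higher, 10 lower and 3 not past the threshold, with a median difference of -0.190 (under median scaling 1 higher and 12 lower), and Dctn2, a dynactin subunit, had an interval of -0.11 to 0.08 (-0.36 under median scaling, past the threshold). Among intermediate filaments Vim, which Bergmann glia retain, was higher by 1.52, and Gfap, an astrocyte filament, differed by -0.62. The neurofilament gene Nefm had an interval of -0.37 to 0.25. In the list 4 of 11 detected genes were higher, 4 lower and 3 not past the threshold, with a median difference of -0.0155 (under median scaling 3 higher and 4 lower).

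Organelle and trafficking lists had small medians. Among Rab GTPases, 19 of 51 detected genes were higher, 15 lower and 17 not past the threshold, with a median difference of 0.0214 (under median scaling median -0.161 with 10 higher and 24 lower, under cyclic loess median -0.0104 with 18 higher and 19 lower). They lay between Rab26 at -2.22 and Rab5b at 1.34. Subunits of the vacuolar proton pump were mostly lower, with 2 of 17 detected genes higher, 11 lower and 4 not past the threshold, and with a median difference of -0.256. They were led by Atp6v1c2 and Atp6v1d at -1.01 and -0.90. For lysosomal enzymes, 13 of 35 detected genes were higher, 11 lower and 11 not past the threshold, with a median difference of 0.0973 (under median scaling median -0.0486 with 8 higher and 15 lower, under cyclic loess 13 higher and 13 lower). The cathepsin genes Ctsa and Ctsf were higher by 1.18 and 0.97. Among autophagy genes, 10 of 30 detected genes were higher, 10 lower and 10 not past the threshold, with a median difference of 0.00146 (under median scaling median -0.164 with 6 higher and 15 lower, under cyclic loess median -0.0468 with 8 higher and 12 lower). Gabarap had an interval of -0.12 to 0.11 (-0.25 under median scaling, past the threshold).

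Over glycolysis, 9 of 25 detected genes were higher, 9 lower and 7 not past the threshold, with a median difference of -0.0796 (under median scaling 6 higher and 13 lower, under cyclic loess 9 higher and 11 lower). The aldolase gene of astrocytes and Purkinje cell stripes, Aldoc, was higher by 1.10, the muscle-type phosphofructokinase gene Pfkm was higher by 0.64 and the liver and platelet types Pfkl and Pfkp differed by -0.73 and -0.61. Ldha, which makes the M subunit of lactate dehydrogenase, was lowest at -1.23, and Pdk2, an inhibitory kinase of pyruvate dehydrogenase, was highest at 1.22. Fatty acid oxidation genes were more often higher than lower, with 12 of 21 detected genes higher, 2 lower and 7 not past the threshold, and with a median difference of 0.172 (under median scaling 7 higher and 3 lower). They were led by Hadha, the trifunctional protein, at 1.0, with Cpt1c, the brain carnitine palmitoyltransferase, at -0.51. For the tricarboxylic acid cycle, 9 of 21 detected genes were higher, 5 lower and 7 not past the threshold, with a median difference of 0.0244 (under median scaling median -0.0612 with 2 higher and 8 lower), none of its members differing by as much as 2-fold, from Idh1 at -0.40 to Ogdh at 0.58.

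In amino acid and one-carbon metabolism, 12 of 25 detected genes were higher, 8 lower and 5 not past the threshold, with a median difference of 0.187 (under median scaling median 0.0405 with 9 higher and 8 lower). Apart from Dao, the serine hydroxymethyltransferase gene Shmt1 and the glycine decarboxylase gene Gldc were higher at 1.23 (at least 2.07-fold) and 0.69, and the serine synthesis genes Phgdh and Psat1 were lower at -0.51 and -0.61. Ass1, of arginine synthesis, was lowest at -1.67. The glutamate decarboxylase genes, which make GABA, split into Gad1 at 0.59 and Gad2 at -0.65, named after their values were seen. Most detected carbonic anhydrases were higher, with 8 of 11 detected genes higher, 2 lower and 1 not past the threshold, and with a median difference of 0.599. They were led by Car4, a membrane-bound form of capillaries, at 2.44, whereas Car11, a form without catalytic activity, differed by -1.35. Among glutathione and redox genes, 16 of 45 detected genes were higher, 18 lower and 11 not past the threshold, with a median difference of 0.0362 (under median scaling median -0.182 with 9 higher and 22 lower, under cyclic loess median -0.00582). They ran from Gpx3 at -1.60 to Gstt1 at 0.65. For mitochondrial carriers, 14 of 33 detected genes were higher, 9 lower and 10 not past the threshold, with a median difference of 0.0655 (under median scaling median -0.0510 with 10 higher and 12 lower). They ran from Slc25a14 at -0.90 to Slc25a29 at 1.25.

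Among genes of RNA processing and chromatin, most detected members of the SR and hnRNP, Polycomb and DNA methylation lists were higher in the cerebellum, against 36.9% of all genes. The spliceosome, splicing regulator and chromatin remodelling lists were slightly above that share, with medians that turned under median scaling. The deacetylase and sirtuin list was close to it. Among SR proteins and hnRNPs, which choose splice sites, 21 of 29 detected genes were higher, 2 lower and 6 not past the threshold, with a median difference of 0.315, and under median scaling 12 were higher and 5 lower with a median of 0.159. Hnrnpr was the highest at 0.87, Srsf12 the lowest at -0.68, and Srsf3 had an interval of -0.09 to 0.12 (-0.14 under median scaling). For spliceosome subunits, 21 of 51 detected genes were higher, 9 lower and 21 not past the threshold, with a median difference of 0.0994 (under median scaling median -0.0352 with 14 higher and 18 lower). They ran from Prpf38b at 1.23 to Snrnp35 at -0.49. The tissue-specific splicing regulators were more divided, with 10 of 23 detected genes higher, 8 lower and 5 not past the threshold, and with a median difference of 0.0999 (under median scaling median -0.0518 with 7 higher and 9 lower). Khdrbs3 was at 9.06 to 9.66 (median 9.28) in the cortex and 5.73 to 6.52 (median 6.19) in the cerebellum, a difference of -3.14 ± 0.10 (SE), Nova1 and Nova2 went opposite ways at 0.69 and -0.56, and Rbfox1 had an interval of -0.03 to 0.18 (-0.24 under median scaling, past the threshold).

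Among the Polycomb group, 14 of 23 detected genes were higher, 4 lower and 5 not past the threshold, with a median difference of 0.352, and under median scaling 12 were higher and 7 lower with a median of 0.204. Its catalytic subunit genes Ezh2 and Ezh1 were higher at 1.20 and 0.48, the core subunit genes Suz12 and Eed at 0.92 and 0.57, Yaf2 was lowest at -0.80 and Phc1 had an interval of -0.12 to 0.11. For DNA methylation genes, 8 of 13 detected genes were higher, 2 lower and 3 not past the threshold, with a median difference of 0.381 (under median scaling median 0.246 with 7 higher and 4 lower). Dnmt3b was higher by 1.32, Tet1 by 0.84 and Dnmt1 by 0.38. Among chromatin remodelling genes, 17 of 40 detected genes were higher, 13 lower and 10 not past the threshold, with a median difference of 0.0567 (under median scaling median -0.0251 with 12 higher and 17 lower). Smarcd2 differed by 2.65 and Smarcd3 by -0.74, Dpf3 by 1.5 (at least 2.10-fold) and Dpf1 by -1.14, and Chd5, a neuronal helicase, was lowest at -2.78. Smarcd2 was at 9.62 to 10.52 (median 10.04) in the cerebellum and 7.26 to 7.64 (median 7.43) in the cortex. For histone deacetylases and sirtuins, 6 of 17 detected genes were higher, 6 lower and 5 not past the threshold, with a median difference of 0.0522 (under median scaling median -0.0694 with 6 higher and 7 lower, under cyclic loess median -0.0126). Hdac8 differed by 1.31 and Hdac9 by -1.23, and Hdac5 had an interval of -0.12 to 0.08 (-0.22 under median scaling, past the threshold).

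The largest family with a one-sided count was the zinc finger proteins named in the Zfp series, of which 110 of 216 detected genes were higher, 28 lower and 78 not past the threshold, with a median difference of 0.169. Under median scaling 80 were higher and 35 lower. Apart from Zfp385c, Zfp521, a factor of neural progenitors and granule cells, was higher by 3.58, Zfp365 was lowest at -3.10, and Zfp511 had an interval of -0.10 to 0.12 (-0.15 under median scaling). Among DNA repair genes, 16 of 34 detected genes were higher, 5 lower and 13 not past the threshold, with a median difference of 0.155. The mismatch repair gene Msh6 was the highest at 0.88 and Fancd2 of the Fanconi pathway the lowest at -3.24, and the repair polymerase gene Polb had a difference of 0.0026 (-0.09 under median scaling). For cyclins and their kinases, 14 of 37 detected genes were higher, 15 lower and 8 not past the threshold, with a median difference of -0.0707. Ccnd2 differed by -2.32, the inhibitor gene Cdkn1b by 1.23 and the cyclin gene Ccnl1 by 1.34.

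At the cell surface and in the matrix, among tetraspanins, 10 of 18 detected genes were higher, 3 lower and 5 not past the threshold, with a median difference of 0.403 (under median scaling 9 higher and 6 lower). The median was 0.158 under median scaling. They were led by Tspan9 at 2.14, with Cd9 and Cd81 at 0.63 and 0.53. For laminins, integrins and related receptors, 18 of 34 detected genes were higher, 7 lower and 9 not past the threshold, with a median difference of 0.260 (median 0.169 over the 24 detected in both tissues). They ran from Itga3 at 1.66 to Itga11 at -1.16, with the common beta subunit gene Itgb1 at -0.01. Among collagens, 8 of 24 detected genes were higher, 7 lower and 9 not past the threshold, with a median difference of 0.0254 (median -0.0156 over the 16 detected in both tissues). Col22a1 was the lowest at -2.19 (at least 3.51-fold), and Col6a1 differed by -1.19. Among perineuronal net and proteoglycan genes, 9 of 21 detected genes were higher, 7 lower and 5 not past the threshold, with a median difference of -0.0652 (under median scaling 6 higher and 8 lower, median 0.177 over the 17 detected on all 24 arrays, median 0.0142 over the 18 detected in both tissues, median 0.0474 in label batch b alone): the neurocan gene Ncan and the brevican gene Bcan were lower at -2.83 and -0.84, while tenascin C, Tnc, and the link protein gene Hapln4 of cerebellar nets were higher at 2.14 and 0.78.

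For connexins and pannexins, 4 of 9 detected genes were higher, 1 lower and 4 not past the threshold, with a median difference of 0.127 (median 0.169 over the 7 detected in both tissues, under median scaling median -0.0460). The neuronal connexin gene Gjd2 differed by 0.97 and Panx1 by -2.48. Among ABC transporters, 11 of 29 detected genes were higher, 6 lower and 12 not past the threshold, with a median difference of 0.0847 (under median scaling median 0.017 with 10 higher and 7 lower). The lipid transporter gene Abca7 differed by 1.57 and Abcb4 by -0.98. The solute carriers, the largest transporter family with 226 detected genes, had 96 higher, 71 lower and 59 not past the threshold, with a median difference of 0.0656 (80 higher and 80 lower under median scaling). Their lowest was Slc30a3, the zinc transporter of cortical glutamate vesicles, at 12.00 to 12.38 (median 12.13) in the cortex and 7.27 to 8.54 (median 7.5) in the cerebellum, a difference of -4.52 ± 0.11 (SE), and their highest Slc41a3, a magnesium transporter, at 2.58. For the transmembrane proteins of the Tmem series, 57 of 159 detected genes were higher, 54 lower and 48 not past the threshold, with a median difference of 0.0333 (under median scaling median -0.102 with 45 higher and 66 lower, under cyclic loess median -0.0210 with 55 higher and 58 lower). Tmem200b and Tmem121b were at the ends with 3.07 and -3.11.

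**Figure D4:**
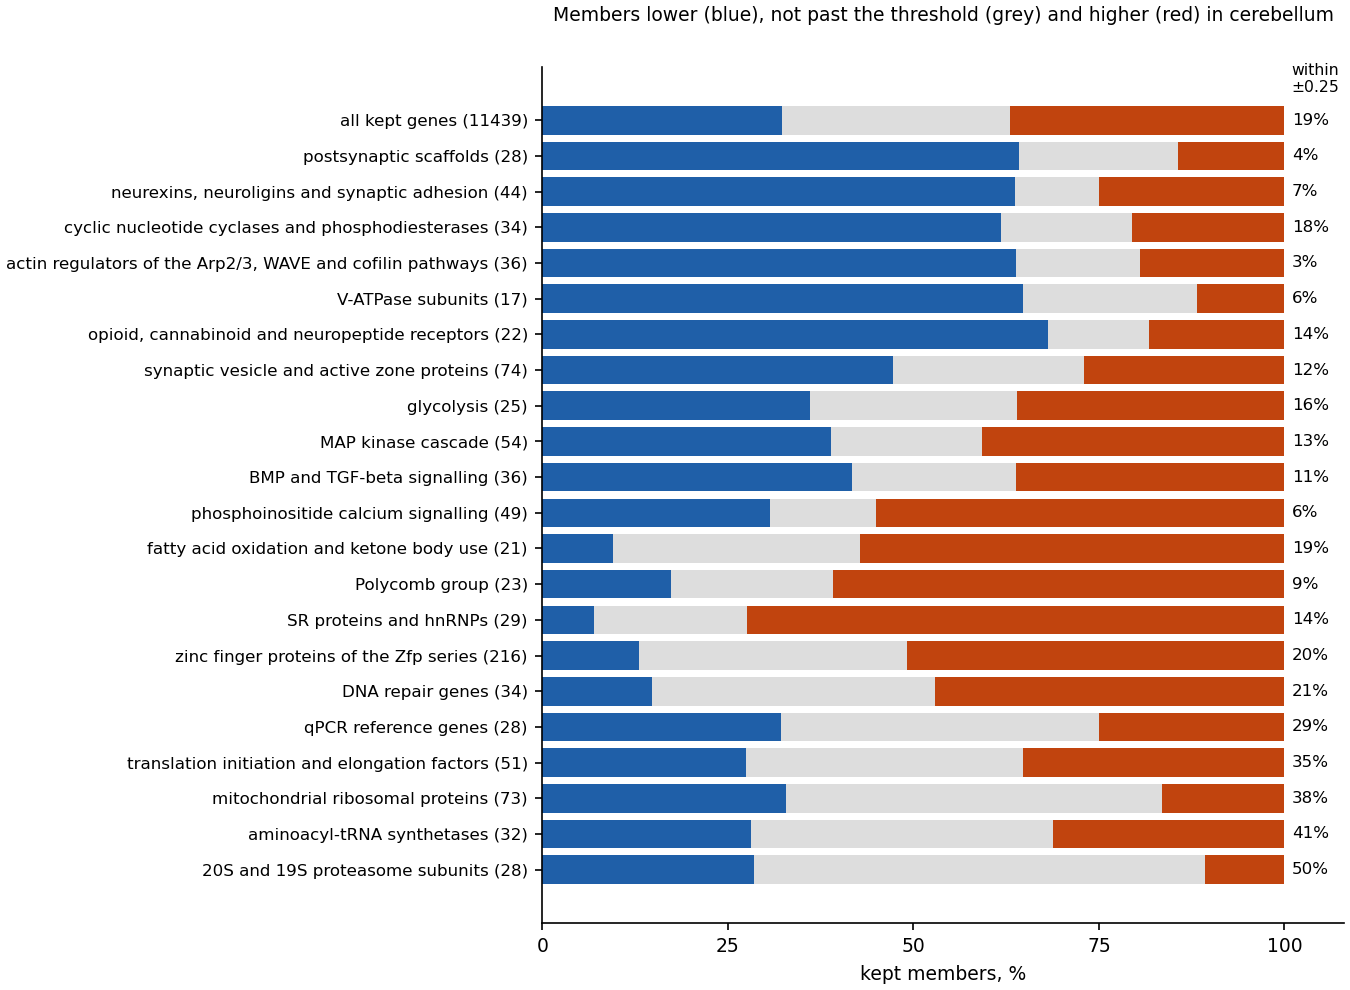
Share (%) of the detected members of selected gene lists and of all 11439 genes that were lower (blue), not past the threshold (grey) and higher (red) in the cerebellum, with the number detected in parentheses and the percentage within the margin of 0.25 at the right. Postsynaptic scaffolds and synaptic adhesion genes are mostly lower, SR proteins and hnRNPs mostly higher, and the proteasome has 50% of its subunits within the margin.

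Genes that did not differ on the main scale were found among bright and dim probes. The 12 genes with the narrowest intervals all lay within about 0.1 log2 units of 0. Elob, elongin B, an adaptor subunit of ubiquitin ligases and of a transcription elongation factor, was the brightest of them, at 12.32 to 12.64 (median 12.44) in the cerebellum and 12.30 to 12.56 (median 12.46) in the cortex. Its difference was 0.01 ± 0.049 (SE) with a 95% interval of -0.10 to 0.11. Dbt, a subunit of the branched-chain keto acid dehydrogenase, was the dimmest, at 7.22 to 7.67 (median 7.40) against 7.18 to 7.77 (median 7.42), with an interval of -0.10 to 0.10. The arrays of the tissues overlapped almost fully for both genes. The other 10 were Anapc4 of the anaphase-promoting complex, Aimp1 of the multisynthetase complex, Fkbp2 of protein folding, Snx4 of endosomal sorting, Supt16 of the histone chaperone FACT, Ccs, which loads copper onto superoxide dismutase, Tceal9, Ndufaf4 of complex I assembly, Leng9 and Ppif, mitochondrial cyclophilin D, with outer limits between 0.101 and 0.110. Level states depended on the scaling: under median scaling 1895 genes were within the margin, 1094 of them also within it on the main scale, Elob had a difference of -0.33 and Dbt one of -0.14. Of the 12 genes with the narrowest intervals, Dbt and Snx4 were not past the threshold under median scaling and the others were, all lower.

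The flat Elob promoter, chr17:23829060-23829359 on the minus strand of GRCm38.p6, is shown as the counterpart of Pcp2. Its capitals mark 4 matches to GGGCGG, the GC-box letters, at positions -25, -74, -78 and -83 from the start, of which neighbouring ones overlap.
Elob: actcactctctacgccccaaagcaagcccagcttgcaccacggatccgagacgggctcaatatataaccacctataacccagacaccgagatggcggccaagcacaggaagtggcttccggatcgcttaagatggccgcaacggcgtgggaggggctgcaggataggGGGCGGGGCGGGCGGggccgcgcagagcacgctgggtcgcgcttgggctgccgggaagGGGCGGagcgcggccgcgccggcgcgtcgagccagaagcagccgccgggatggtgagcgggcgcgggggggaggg
Its GC content was 69.7% against 51.0% for Pcp2, and its CpG ratio 0.958. As a class, however, the 1748 promoters found for the 2149 genes within the margin had GGGCGG in 60.5% of cases, against 62.9% of the 9181 promoters found for all compared genes, and CpG-rich promoters made up 64.8% and 65.7%. TATAAA was found in 7.67% and 7.82%, CAGCTG in 15.2% and 15.0%, CAGATG in 11.3% and 11.9% and TGACGTCA in 3.43% and 3.26%, each motif counted on both strands. For the genes with at least 2-fold differences, promoters were found for 79.2% of the higher and 74.5% of the lower genes, under the 80% needed, so the same comparison is void for them.

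The share of level genes differed between lists. Among proteasome subunits, 14 of 28 genes (50%) were within the margin, against 18.8% of all genes, and 3 were higher and 8 lower, although under median scaling 0 were higher, 21 lower and 3 within the margin. Psmb4, a 20S core subunit gene, had an interval of -0.13 to 0.09 (-0.34 under median scaling, past the threshold), and Psmb1, another, was the exception at -0.62. The aminoacyl-tRNA synthetases, which charge transfer RNAs, had 13 of 32 genes (40.6%) within the margin, but 6 under median scaling, with Farsb at an interval of -0.09 to 0.13 (-0.19 under median scaling, past the threshold) and Cars highest at 1.17. The chaperonin TRiC and its partner prefoldin had 4 of 10 (40%) within it, but 1 under median scaling, with Pfdn4 at -0.40. Mitochondrial ribosomal proteins had 28 of 73 (38.4%) within the margin and 17 under median scaling, between Mrps18a at -0.41 and Mrpl45 at 0.80. Translation factors had 18 of 51 (35.3%), or 9 under median scaling, with Eef1g, an elongation factor subunit gene, at an interval of -0.10 to 0.12 (-0.32 under median scaling, past the threshold) and the elongation factor kinase gene Eef2k at 1.19.

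In these 5 lists fewer members were called than the 69.2% of all genes. Among mitochondrial ribosomal proteins, 12 of 73 detected genes were higher, 24 lower and 37 not past the threshold, with a median difference of -0.0567 (under median scaling 2 higher and 44 lower). For translation factors, 18 of 51 detected genes were higher, 14 lower and 19 not past the threshold, with a median difference of 0.0510 (under median scaling median -0.127 with 10 higher and 20 lower, under cyclic loess median -0.00302). For tRNA synthetases, 10 of 32 detected genes were higher, 9 lower and 13 not past the threshold, with a median difference of 0.0373 (under median scaling median -0.108 with 6 higher and 13 lower, under cyclic loess 8 higher and 9 lower). For TRiC and prefoldin, 1 of 10 detected genes was higher, 3 lower and 6 not past the threshold, with a median difference of -0.0566. Ubiquitin-conjugating enzymes had 8 of 25 genes within the margin, with Ube2n at an interval of -0.11 to 0.12 (-0.24 under median scaling, past the threshold), and 4 of 25 detected genes were higher, 10 lower and 11 not past the threshold, with a median difference of 0.00547 (under median scaling median -0.121 with 0 higher and 12 lower, under cyclic loess median -0.0247). For ubiquitin-specific proteases, 19 of 39 detected genes were higher, 8 lower and 12 not past the threshold, with a median difference of 0.109 (under median scaling median 0.00165 with 15 higher and 10 lower). Usp3 differed by 2.02 and Usp11 by -1.26. Among RNA polymerase II, TFIID and Mediator subunits, 19 of 60 detected genes were higher, 18 lower and 23 not past the threshold, with a median difference of 0.00735 (under median scaling median -0.107 with 9 higher and 24 lower, under cyclic loess median -0.0314 with 15 higher and 21 lower). Med12, a Mediator kinase module gene, was the highest at 1.44.

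Genes often used to normalise quantitative PCR were examined one by one, since a normaliser should not differ between the tissues compared. Of 28 detected, 7 were higher, 9 lower and 12 not past the threshold, and 8 had intervals within the margin, although under median scaling 2 were higher, 18 lower and 4 within it. Tubb5, a beta-tubulin, was farthest from level, at 14.10 to 14.39 (median 14.21) in the cortex and 13.35 to 13.79 (median 13.45) in the cerebellum, a difference of -0.75 ± 0.057 (SE) without overlap of the tissues. Actb, beta-actin, the most used normaliser of all, was lower in the cerebellum of 12 of 12 animals, by a difference of -0.45 ± 0.054 (SE) (adjusted p = 9.4e-07, limma), at 12.33 to 12.90 (median 12.63) against 12.75 to 13.36 (median 13.07). Of its other kept probes, a dimmer one differed by -0.70 and 3 gave 0.069, 0.11 and 0.11 without passing the threshold, so its probes disagree. Gapdh, the glycolytic enzyme, was level at 12.58 to 12.86 (median 12.73) against 12.62 to 13.01 (median 12.77), with an interval of -0.18 to 0.07, but its difference was -0.40 under median scaling.

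The remaining reference genes fell between these. The ribosomal protein gene Rpl27 had an interval of -0.14 to 0.07 (-0.36 under median scaling, past the threshold), the proteasome gene Psmb2 of -0.16 to 0.07 (-0.29 under median scaling, past the threshold), the beta-2-microglobulin gene B2m of -0.11 to 0.15 and the glucuronidase gene Gusb of -0.24 to 0.05, all inside the margin. For Gusb this holds for the brightest probe only, since its other 3 probes were lower and past the threshold at -0.38, -0.25 and -0.19, and it was called at -0.17 under cyclic loess and at -0.23 under median scaling. B2m had a difference of -0.18 under median scaling. The cyclophilin gene Ppia (-0.12), the ATPase gene Vcp (-0.13) and the translation factor gene Eif4a2 (0.13, or -0.13 under median scaling) were past the threshold with intervals still inside it. With 1 animal left out, the call of Eif4a2 was lost in 10 of 12 fits and those of Ppia and Vcp in 4 each. Lower genes were the signalling adaptor Ywhaz (-0.58), Pgk1 of glycolysis (-0.34), the ribosomal protein gene Rpl4 (-0.31), Eef1a1 of translation (-0.25) and Hprt of purine salvage (-0.23). Higher genes were the transferrin receptor Tfrc (0.41), the TATA-binding protein Tbp (0.39), cytochrome c1, Cyc1 (0.36), Rer1 of Golgi sorting (0.31), topoisomerase Top1 (0.25) and the ATP synthase gene Atp5b (0.17). Among them, Cyc1 (0.10), Rer1 (0.17), Top1 (0.11) and Atp5b (0.05) were not past the threshold under median scaling. Not past it on the main scale were the other 3 probes of Tbp (0.02, 0.03 and 0.12) and the second probes of Rer1 (-0.0074) and Top1 (0.07). The intervals of Rplp0 (-0.29 to -0.01, -0.26 under median scaling, past the threshold), Rpl13a (-0.32 to 0.05, -0.27 under median scaling, past the threshold), Ppib (-0.28 to 0.05, -0.27 under median scaling, past the threshold), Rab7 (-0.26 to 0.02, -0.31 under median scaling, past the threshold), Snrpd3 (-0.03 to 0.31, -0.05 under median scaling), Chmp2a (-0.06 to 0.27, -0.09 under median scaling) and Emc7 (-0.25 to 0.27, -1.2e-05 under median scaling) crossed the margin without passing the threshold on the main scale. Rplp0 was also past it under cyclic loess (-0.22) and with male 3 (-0.18) or male 4 (-0.17) left out, and a second probe of Chmp2a (0.40) and the mean of its probes (0.16) were past it. Rpl13a was past it under cyclic loess (-0.21) and with female 1 left out (-0.20), and Rab7 with male 6 left out (-0.17). With runs of 6 array columns as a further term in the fit, Rplp0 (-0.17), Snrpd3 (0.19) and Chmp2a (0.14) were past it.

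**Figure D5:**
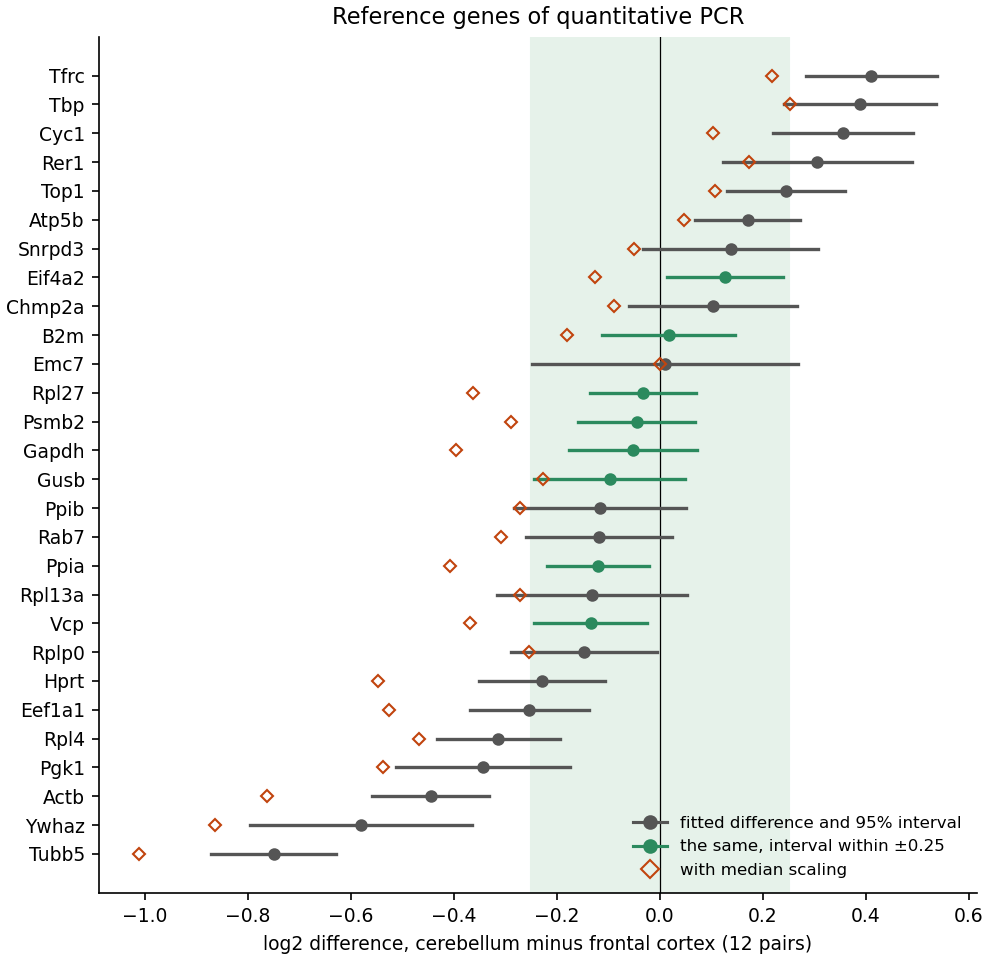
Fitted log2 difference (cerebellum minus frontal cortex, horizontal axis) with its 95% interval for each of the 28 qPCR reference genes, with the margin of 0.25 on either side of 0 shaded, intervals inside it in green and the value under median scaling as an open diamond. Gapdh and Rpl27 lie inside the margin but have diamonds outside it, Tubb5 and Ywhaz are the farthest below 0 and Tfrc the farthest above it.

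The lists of cell types outside the neurons went different ways. All 10 detected microglia markers were lower in the cerebellum, from -0.39 for P2ry12 to -1.65 for Cx3cr1, and the mean of the list was 5.830 to 6.074 on cerebellum arrays and 7.041 to 7.279 on cortex arrays, without overlap. For astrocyte markers, 7 of 11 detected genes were higher, 3 lower and 1 not past the threshold, with a median difference of 0.498. Slc1a2, the main glutamate transporter, differed by -1.51 and Slc1a3, the transporter dominant in Bergmann glia and listed there, by 1.05. Among oligodendrocyte markers, 7 of 12 detected genes were higher, 2 lower and 3 not past the threshold, with a median difference of 0.306 (under median scaling 3 higher and 2 lower). The myelin gene Mbp differed by 0.51 and the precursor factor gene Olig1 by -0.44. The oligodendrocyte mean overlapped between the tissues, 9.568 to 9.923 against 8.950 to 9.654. Endothelial and pericyte markers had 5 of 11 genes within the margin, with Pecam1 at an interval of -0.13 to 0.15 (-0.06 under median scaling), and 3 of 11 detected genes were higher, 1 lower and 7 not past the threshold, with a median difference of 0.0805 (under median scaling median -0.0158, median -0.0252 in label batch a alone). Haemoglobin genes and other red cell markers were higher, 5 of 5, with Hbb-bs at 0.79, and their mean of 9.040 to 10.15 overlapped the cortex range of 8.139 to 9.394.

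Of the 7913 called genes, 4962 had the same sign in all 12 animals. The 8 called genes with the largest SD of the difference were Ttr (2.44), Clic6 (1.68), Ddn (1.46), Dlk1 (1.34), Isl1 (1.23), Kl (1.20), Gh (1.20) and Nrgn (1.06). Clic6 and Kl, both of the choroid plexus, differed by 1.08 and 0.67 over all animals, calls that were lost in 2 and 6 of the 12 fits with 1 animal left out. In the 8 animals of label batch b they differed by 0.17 and 0.01, and neither was past the threshold. Clic6 varied on the arrays of both tissues, with an SD of 0.84 in the cerebellum and 1.01 in the cortex. Its cortex levels ran from 4.618 in female 1 to 8.249. For Kl the SD was 1.06 in the cerebellum and 0.35 in the cortex. Dlk1, a Notch-family ligand of monoaminergic and hypothalamic neurons, differed by -0.83, a call lost in 6 of those 12 fits, but by 0.37 in label batch a, and Isl1 had a cortex level of 4.615 in female 1 against 7.393 or more in the other 11. Gh, growth hormone, was at 4.36 to 5.94 (median 4.62) in the cerebellum and 4.39 to 8.25 (median 6.23) in the cortex, a difference of -1.38 that failed the threshold in label batch a.

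The tissue difference depended on sex for 5 genes after adjustment over all probes, and for 785 at an unadjusted p under 0.05. For Id2, an inhibitor of basic helix-loop-helix factors, the female minus male difference was -0.84 and for Atp11b, a phospholipid flippase, -0.95 (adjusted p = 0.0067 and 0.028, limma). Over both sexes the probes of Id2 gave 0.51 and 0.50, and those of Atp11b 0.43 and -0.03, the last not past the threshold. The other 3 were the Y-linked multicopy genes Gm20738, Gm20815 and Gm20867. Females lack a Y chromosome, so for these 3 a tissue difference in males alone gives a dependence on sex. A dependence on the label batch was found for 0 genes by limma after adjustment, and for 719 at an unadjusted p under 0.05.

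Probes of a gene could differ, and the brightest was used for each. Of 4402 genes with several kept probes, 383 had probes at least 1 log2 unit apart and 233 had probes past the threshold in both directions. In 3 genes both directions reached 2-fold, namely Syne1, a giant nuclear envelope protein linked to cerebellar ataxia, at 1.13 and -3.25, Gas7 at 1.96 and -1.10 and the kinase gene Tnik at 1.02 and -1.86. Of the genes named here, 149 had another kept probe, which lay at least 1 log2 unit from the brightest for 46 of them. For 9 of these 46 such a probe was not past the threshold: it gave -0.12 for Pde1a, -0.09 for Homer1, -0.02 for Hdac9, -0.16 for Eef2k, 0.002 for Tnc, 0.07 for Pde1c and 0.03 for Ctsa, whose other 3 probes were not past it either (0.05, 0.09 and 0.11), and Aldoc and Cars were the other two. Ptch1 and Rora had second probes at 0.35 and 0.70, Zic2 at 0.30 and En1 at 1.10, in each case with the sign of the brightest, whereas Nfib and Nfix had second probes at 1.99 and 1.80, above the brightest. Of 47 named genes within the margin, 22 had another kept probe and 10 of these had one past the threshold. It gave -0.13 for Elob, 0.26 for Ndufaf4 and 0.25 for Supt16, which were among the narrowest intervals. It gave -0.31 and -0.26 for Dctn2, 0.26 for Rbfox1, 0.24 for Eif4a2, -0.22 for Csnk1d, -0.16 for Sox7 and -0.15 for Zfp511, and Gusb was the tenth. The level state of these genes holds for the brightest probe only. In the GRCm38.p6 annotation 47 of the named genes overlap another protein-coding gene, among them Elob, Pcp2, Zic1 and Zic4, and which transcripts their probes measured was not tested.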

How the data were processed

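Total RNA of the cerebellum and frontal cortex of 12 mice was hybridised to 24 arrays, 6 per sex and tissue, grouped by the labels. Per the file headers, the deposited scanner output gave 4 columns for each array. These were the mean bead intensity per probe, not normalized between arrays, a detection p-value and another value, the bead number. The fourth, per the file headers, was the standard error of the bead signal, left by the authors on the linear scale of the scanner. A second table deposited by the authors held normalized intensity on a linear scale, and its sorted columns matched to within 1.93%. Its order within each array was that of the scanner signal. It served as an alternative. Partek is named in the submitters' processing notes, and its version and role are not given in the sources used here.

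Intensity was background-corrected and quantile-normalized with neqc of limma 3.58.1 (R 4.3.3, offset 16, negative controls inferred from the detection p-values), and log2 values were computed here from the deposited intensity. The R packages data.table, version 1.17.8, and statmod, version 1.5.0, served to read tables and to fit the random block. The filter kept probes that 6 or more arrays detected at p under 0.05. A linear model with a term for the animal and 1 for the tissue was fitted to all kept probes (11 residual degrees of freedom, 5.85 prior), with Benjamini-Hochberg adjustment at 0.05. The animal label pairs the tissues. Correlations of an animal's arrays, as deviations from the group means, lay between -0.30 and 0.24, with 5 of 12 over 0.1, so the pairing rests on the labels. For each gene the kept probe with the highest mean level was used. Of the kept probes 17921 had 1 symbol, 8 several and 3184 none here. Symbols came from the platform annotation, updated by Entrez ID. The number of arrays limits the precision.

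The gene lists and the members were chosen with earlier results of these data known. Genes named are the 15 largest differences in each direction with 1 sign in 12 animals, the 12 narrowest intervals, all reference genes, the 8 called genes most variable between animals, genes whose probes went opposite ways, and up to 6 of each list (largest rise, largest fall, narrowest interval, best-known members). One item is not reported here. Genes named otherwise were chosen after their values were seen. These include Gad1 and Gad2 and the genes discussed for their probes. The fit was tested on simulated data. The closing section gives the effect of 32 alternatives in background correction, scaling, probe filter, model and animals, 2 of them chosen after seeing the data.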

Additional observations from a re-analysis of the deposited data

Results flagged for a closer look

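In 132 sets of 6 arrays (33 marker lists and genes in each of the 4 groups), 17 values lay far from the rest of their group, with a gap to the nearest array that took up most of the group's range (Dixon's test). Chance alone would set apart about 1 in 20 such groups (5%) if they were independent and chosen blind. They were not, since several genes were named for their spread between animals, and lists and genes share members and arrays. The 17 values therefore cannot be weighed against that rate.

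Female frontal cortex 1 was the lowest of its group for the striatal list at 6.357 (nearest 7.722), for Rgs9 at 7.648, Tac1 at 8.131, Drd1 at 6.726 and Isl1 at 4.615, and also for Clic6 at 4.618. It was lowest for the granule cell list at 5.884 and the oligodendrocyte list at 8.950 as well. Male cerebellum 3 was the highest of its group for the cortical excitatory list at 7.324 (nearest 6.916) and for the interneuron list at 6.961. Female cerebellum 4 was the highest of its group for the interneuron list at 7.194, for Sst at 7.962, for Egr3 at 6.210 and for Tac1 at 5.548. The remaining values were Cbln1 at 14.19 in male cerebellum 1 (lowest, nearest 14.26), Lhx1 at 4.685 in male frontal cortex 3 (highest) and Isl1 at 5.984 in male cerebellum 2 (highest).

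The tissue difference of females minus that of males was past the threshold (limma, adjusted) for Gm20867 at -1.964, Gm20815 at -1.621, Gm20738 at -1.201, Atp11b at -0.946 and Id2 at -0.8438. The first 3 are Y-linked genes of a multicopy family, whose probes may share transcripts. Females lack a Y chromosome, so a tissue difference in males alone is enough to flag these 3.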

How the results depend on the processing

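Of 9875 values of the 312 named genes under 32 alternatives, 9723 kept their side of the threshold, and their direction where called, 98 lost the call, 40 gained one and 14 turned. Of these, 3 were called genes: Dlk1 in label batch a alone (0.367), Atp11b in females alone (-0.04245) and Eif4a2 under median scaling (-0.1269). The other 11 were uncalled genes that gained a call in the opposite direction: under median scaling Elob (-0.3325), Eef1g (-0.3188), Ube2n (-0.2434), Rbfox1 (-0.2381), Calm3 (-0.2299), Cplx1 (-0.2075), Farsb (-0.1887), B2m (-0.1797), Ppif (-0.1726) and Supt16 (-0.1439), and over the mean of its probes Ndufaf4 (0.128). A further 267 values changed sign while called in neither fit. With 1 animal left out, 6 of these genes, Clic6, Dlk1, Eif4a2, Kl, Ppia and Vcp, lost the call in some fit, and Clic6, Dlk1 and Kl also lost it with eBayes trend and robust settings. Without a replicate block, the unpaired fit called 8060 genes, 4297 higher and 3763 lower, with 2242 level; the random replicate block called 8029. Fewer genes reached 2-fold without background correction (411 higher, 573 lower), with normexp by maximum likelihood (417 and 578) and in the authors' values (413 and 574), while 4359, 4271 and 4348 were level and 0 genes had opposite probes in each; larger offsets or uncorrected background compress log2 differences by construction. Genes within the margin numbered 9426 with no filter on dim probes, 812 in females alone, 707 in males alone and 2 in label batch a alone (4 animals). They numbered 1174 without the 4 animals with the highest share of cortex signal in the cerebellum (chosen after seeing the data) and 5966 at a margin of 0.5. A fold of 4 left 164 and 315. Sex-dependent genes were 1 with probes detected on all arrays, 1 with probes detected in each tissue, 0 in label batch a, 18 in label batch b and 3 without male 3 and female 4 (chosen after seeing the data). Genes dependent on the label batch were 1 with normexp by maximum likelihood, 2 with median scaling and 5 in males alone, and with probes detected on all arrays 1 gene had opposite probes. The cause was not tested. With each animal left out in turn, calls ran from 7679 to 7904, level genes from 1940 to 2103, sex-dependent genes from 4 to 6, batch-dependent genes from 0 to 7 (7 without male 2, and 7 without female 3) and genes with opposite probes from 2 to 3. Signal near background limits the size of differences for the 616 and 621 genes detected in 1 tissue.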
